A study of Mus musculus with 3 samples.

Results

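Mt1 and Mt2 are the metallothioneins that most mouse tissues make, and they were followed here across the vessel classes of sorted muscle endothelial cells. Both were taken by symbol from the gene rows of the deposited matrices, which gave 2 of 41605 rows. They had been selected on measured values of these same libraries, namely their differences between vessel classes and between libraries, so those levels are given as a description and with no test. The cells came from the gastrocnemius muscle of wild type C57BL/6N mice and had been sorted alive as CD31+ CD45- SYTOX blue- cells after digestion with Dispase and collagenase. Of the 3 libraries, the running one came from mice housed singly with a running wheel for 14 days. The untreated one carried no treatment, and the labels leave out how its mice were housed. The sedentary one came from mice housed singly in cages of the same size without a wheel. Each group had 1 library, and the labels leave out how many mice a library drew on, so no difference between groups has a replicate check.

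Metallothioneins are small, cysteine-rich proteins of the cytosol and nucleus that bind zinc and copper. Their genes are switched on by zinc through the transcription factor Mtf1, which binds metal response elements in their promoters, and also by glucocorticoids, cytokines and oxidative stress. In endothelial cells they are known as a store of zinc that nitric oxide can release.

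Mt1 (ENSMUSG00000031765) lies on chromosome 8 at 94179082 to 94180327 on the plus strand and Mt2 (ENSMUSG00000031762) at 94172664 to 94173568 on the same strand, in the GENCODE M21 annotation of GRCm38. The genes are 5514 bases apart, and each has 3 exons. Their coding sequences were 79.6% identical over 186 bases, and the proteins they encode have 61 residues each, 20 of them cysteine, with 75.4% identity. The longest run of bases shared by both transcripts was 20, and after the stop codon it was 10. An antisense gene model that overlaps Mt2, Gm45774, had 0 UMIs (counted transcript molecules) in the kept cells of all 3 libraries. The promoters are shown because both genes are textbook targets of the metal response element. The 250 bases before the RefSeq transcript start are printed 5′ to 3′ on the plus strand, from the RefSeq promoter table of GRCm38.p6. Capitals mark each match to the metal response core, TGCACNC or TGCGCNC, on either strand.
Mt1, chr8:94178839-94179088: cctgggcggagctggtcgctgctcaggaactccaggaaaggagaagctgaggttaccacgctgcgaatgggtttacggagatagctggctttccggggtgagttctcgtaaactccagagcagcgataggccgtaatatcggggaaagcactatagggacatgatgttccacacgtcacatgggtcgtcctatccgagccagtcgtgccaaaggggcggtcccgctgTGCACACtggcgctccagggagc
Mt2, chr8:94172368-94172617: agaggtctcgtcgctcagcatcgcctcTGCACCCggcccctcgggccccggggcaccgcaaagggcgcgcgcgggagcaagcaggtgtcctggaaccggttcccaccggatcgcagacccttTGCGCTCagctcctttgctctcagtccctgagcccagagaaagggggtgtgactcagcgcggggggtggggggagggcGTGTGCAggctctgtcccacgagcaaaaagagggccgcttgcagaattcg
The Mt1 window held 1 such core, 23 bases before the start, and the Mt2 window held 3, at 223, 128 and 50 bases before it, the last on the minus strand. Of 32851 RefSeq promoter windows of this length, 21.4% held at least 1 core and 1.26% at least 3. A match is a description of the letters and not a measured binding site. The counts also depend on the start used. GENCODE lists further Mt1 transcripts that start at 94179211 and 94179241, and Mt2 transcripts that start at 94172664 and 94172860. The bases between the RefSeq starts and these were not searched, so the windows do not give the number of cores in either whole promoter.

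The libraries held 3260 running, 4376 untreated and 4079 sedentary barcodes, with medians of 1518, 1582 and 1122 UMIs. After filtering, 3212, 4326 and 4016 cells were kept, and at most 0.785% of a library's barcodes also occurred in another library. Clusters were made without the metallothionein genes and named from marker lists. The endothelial label held for most cells, since artery-like, capillary-like and vein-like clusters held 3006 of the running, 4169 of the untreated and 3870 of the sedentary cells. The untreated library stood apart. Of its capillary-like cells 51.0% fell in 1 cluster (cluster 7) that held 3.02% of the running and 2.67% of the sedentary ones, and of its artery-like cells 69.7% fell in cluster 2, whereas 62.6% of the running and 71.0% of the sedentary ones fell in cluster 6. No date or batch was given for it, so batch and group cannot be told apart in any comparison that uses it.

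Over all kept cells Mt1 had 447 UMIs in the running, 527 in the untreated and 356 in the sedentary library, found in 138, 117 and 122 cells. Mt2 had 154, 245 and 115 UMIs in 43, 54 and 36 cells. Both transcripts were thus seen in few cells, with several UMIs in some of them. The brain-enriched family member Mt3 had 7, 4 and 1 UMIs, and Mt4, known from squamous epithelia, had 0, 1 and 0.

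The highest metallothionein level was outside the endothelial classes, in a small cluster marked by mural cell genes. Mural cells are the pericytes and smooth muscle cells around vessels, and this cluster was led by Gsn, Meg3, Acta2, Ndufa4l2, Gpx3, Dcn, Pdgfrb and Kcnj8, a mixture of mural and fibroblast genes. Together Mt1 and Mt2 reached 2848 CPM (UMIs of a gene scaled to 1000000 UMIs of the sum, 95% interval 2566 to 3152) in its 38 running cells, 1790 CPM (1578 to 2023) in its 46 untreated cells and 3032 CPM (2404 to 3774) in its 12 sedentary cells. A UMI of either gene was found in 21, 22 and 6 of those cells. The cluster made up 1.18% of running, 1.06% of untreated and 0.299% of sedentary cells, yet held 62.1%, 33.3% and 17.0% of the metallothionein UMIs. A CD31+ sort should hold few such cells, and a total over a whole library would move with how many it holds. All intervals cover counting error only. They treat UMIs as independent, although UMIs of 1 cell are not, so they are too narrow where a few cells hold most of the UMIs.

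**Figure D1:**
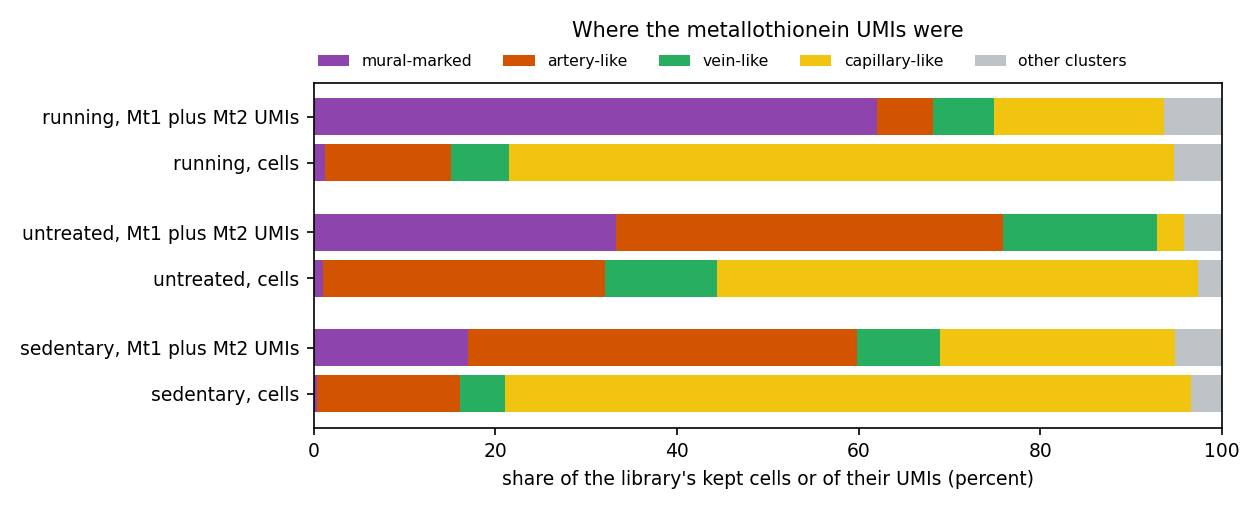
Share of Mt1 plus Mt2 UMIs and of kept cells (x axis, percent) held by the mural-marked, artery-like, vein-like, capillary-like and all other clusters, with a pair of bars for each library. The mural-marked cluster took 62.1% of the UMIs of the running, 33.3% of the untreated and 17.0% of the sedentary library from 1.18%, 1.06% and 0.299% of the cells.

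Among the artery-like, capillary-like and vein-like classes, artery-like cells carried the highest Mt1 level in the untreated and sedentary libraries but not clearly in the running one. Mt1 stood at 34.9 CPM (24.0 to 49.0, 33 UMIs) in running, 92.9 CPM (81.5 to 105.5, 237 UMIs) in untreated and 163 CPM (139 to 189, 173 UMIs) in sedentary artery-like cells. In capillary-like cells it stood at 26.7 CPM (21.7 to 32.5, 99 UMIs), 5.69 CPM (3.48 to 8.79, 20 UMIs) and 26.2 CPM (21.2 to 31.9, 97 UMIs) in the running, untreated and sedentary libraries. In vein-like cells it stood at 33.9 CPM (21.7 to 50.5, 24 UMIs), 57.9 CPM (46.3 to 71.6, 85 UMIs) and 39.0 CPM (24.1 to 59.6, 21 UMIs). Outside these classes, an unnamed cluster led by Penk, Itm2a, Esm1 and Col13a1 had Mt1 at 145 CPM (83.0 to 236), 129 CPM (77.7 to 202) and 218 CPM (135 to 333), above the artery-like level in each library but with overlapping intervals in the untreated and sedentary ones. Lymphatic-like cells had it at 92.3 CPM (47.7 to 161), 75.5 CPM (27.7 to 164) and 96.5 CPM (11.7 to 349). Ordered by level over the 3 classes, sedentary and then untreated artery-like cells came first and untreated capillary-like cells last, each with an interval clear of its neighbour in the order, and between them the intervals of neighbours overlapped.

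Mt2 was lower than Mt1 nearly everywhere and had its own order. It stood at 4.23 CPM (1.15 to 10.8, 4 UMIs) in running, 36.1 CPM (29.1 to 44.2, 92 UMIs) in untreated and 27.3 CPM (18.2 to 39.1, 29 UMIs) in sedentary artery-like cells. In capillary-like cells it stood at 3.77 CPM (2.06 to 6.33, 14 UMIs), 0.853 CPM (0.176 to 2.49, 3 UMIs) and 6.75 CPM (4.37 to 9.96, 25 UMIs). In vein-like cells it stood at 22.6 CPM (12.9 to 36.7, 16 UMIs), 31.3 CPM (23.0 to 41.8, 46 UMIs) and 40.8 CPM (25.6 to 61.8, 22 UMIs). The vein-like values and those of untreated and sedentary artery-like cells overlapped with their neighbours in the order, and all lay above the 4 lowest, which were the capillary-like values and that of running artery-like cells.

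**Figure D2:**
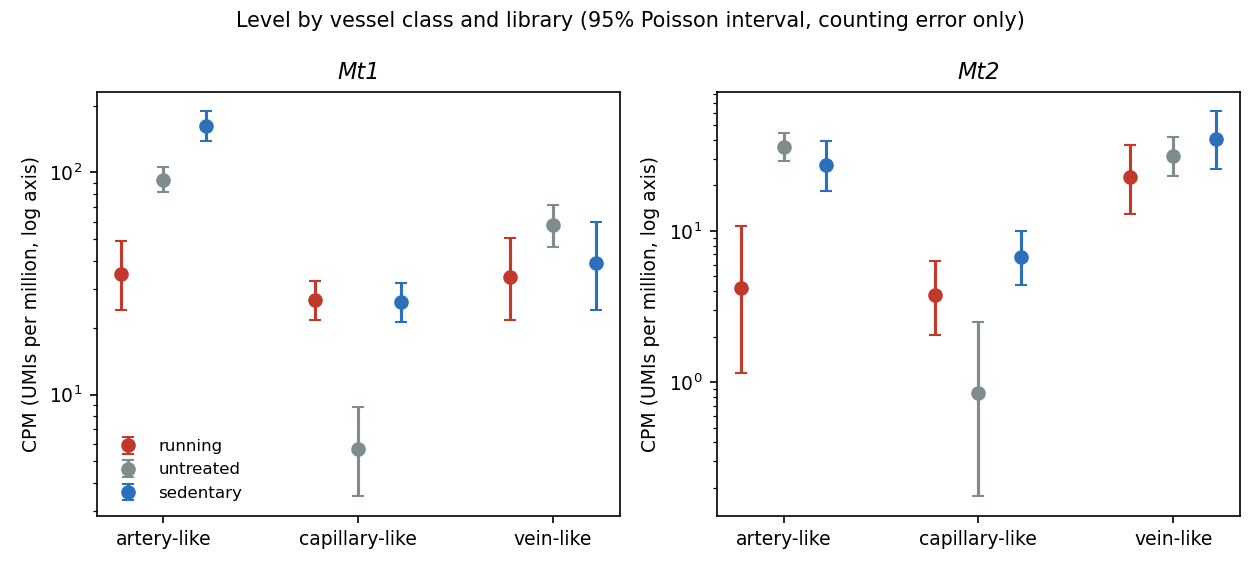
Level of Mt1 (left panel) and Mt2 (right panel) in CPM on a log axis, by vessel class and library; points are sums over the cells of a class and bars exact 95% Poisson intervals. For Mt1, running artery-like cells (34.9 CPM) lay below untreated (92.9 CPM) and sedentary (163 CPM) ones, and untreated capillary-like cells (5.69 CPM) lay below the running (26.7 CPM) and sedentary (26.2 CPM) ones.

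The Mt1 share of both genes' UMIs was lowest in vein-like cells, but its interval was clear of both other classes only in the sedentary library. Mt1 made up 89.2% (exact interval 74.6 to 97.0), 72.0% (66.9 to 76.8) and 85.6% (80.0 to 90.2) of the UMIs of both genes in running, untreated and sedentary artery-like cells. In capillary-like cells it made up 87.6% (80.1 to 93.1), 87.0% (66.4 to 97.2) and 79.5% (71.3 to 86.3). In vein-like cells it made up 24 of 40 UMIs in the running library (interval 43.3 to 75.1%), and 64.9% (56.1 to 73.0) and 48.8% (33.3 to 64.5) in the untreated and sedentary ones, the lowest share of the 3 classes in every library. Mural markers summed to 802, 525 and 744 CPM in running, untreated and sedentary vein-like cells, against 254, 218 and 173 CPM in artery-like and 269, 198 and 204 CPM in capillary-like cells. In the mural-marked cluster Mt1 made up 70.2%, 62.3% and 52.5% of the UMIs of both genes. Within the vein-like class the mural markers stood at 795, 627 and 572 CPM in cells with a metallothionein UMI and at 802, 518 and 761 CPM in those without, and the part of mural RNA in the vein-like balance was not tested. The vein-like shares rested on few cells, since the 3 cells with most Mt2 held 62.5%, 45.7% and 95.5% of the class's Mt2 UMIs. A low share was not confined to this class. In untreated cells of artery-like cluster 6 Mt1 made up 40.5% (24.8 to 57.9), on 15 Mt1 and 22 Mt2 UMIs. In that cluster's running and sedentary cells it made up 75.0% and 87.5%.

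The comparison named in the study's design set running against sedentary mice. It showed lower metallothionein levels in running artery-like cells. Over all capillary-like or all vein-like cells it showed no difference beyond counting error. In artery-like cells the log2 ratio of running to sedentary was -2.20 (-2.80 to -1.68) for Mt1 and -2.54 (-4.66 to -1.18) for Mt2. Past 1.5-fold in either direction, which counts as called here, lay 7.93% of the genes with at least 50 UMIs in that comparison. In capillary-like cells the ratio was 0.03 (-0.39 to 0.45) for Mt1 and -0.82 (-1.90 to 0.16) for Mt2, with 6.31% of genes called. In vein-like cells it was -0.20 (-1.11 to 0.72) for Mt1 and -0.84 (-1.88 to 0.14) for Mt2, with 9.13% called. With each cell counted once both vein-like ratios turned positive, to 0.26 and 0.69. That count set the cells with a UMI against the total UMIs of the class, not against its number of cells. Mt2 in all 3 classes and Mt1 in vein-like cells had under 50 UMIs over both libraries. The shares of genes called do not include them. In capillary-like cluster 1 Mt1 had 73 UMIs in 1130 running and 68 in 806 sedentary cells, a log2 ratio of -0.54 (-1.04 to -0.04). That cluster held 48.0% of running and 26.6% of sedentary capillary-like cells. In capillary-like clusters 0, 3, 4 and 7 the Mt1 interval included 0.

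In artery-like cells the UMIs were spread unevenly over the cells. A metallothionein UMI was found in 26 of 447 running (5.82%), 66 of 1342 untreated (4.92%) and 40 of 635 sedentary artery-like cells (6.30%), at median depths of 1824, 1644 and 1471 UMIs. The UMIs in them summed to 37, 329 and 202. The cell with most had 5, 34 and 52. Cells with at least 5 UMIs, a limit chosen after the values were seen, numbered 1, 23 and 6, and held 13.5%, 79.9% and 74.3% of the class's metallothionein UMIs. With each cell counted once, still over the total UMIs of the class, the log2 ratio of running to sedentary for Mt1 was -0.53 (-1.38 to 0.26). That interval includes 0. As shares of cells, Mt1 was found in 4.92% of running and 5.67% of sedentary artery-like cells. A UMI of a mural marker was found in 0 of the 1 running, 8 of the 23 untreated and 1 of the 6 sedentary cells with at least 5 metallothionein UMIs, and one of a fibroblast marker in 0 of them. The summed mural markers stood at 278 CPM in running artery-like cells with a metallothionein UMI and 252 CPM in those without, at 129 and 224 CPM in the untreated and at 171 and 173 CPM in the sedentary library. The 10 fibroblast markers had 0 UMIs in artery-like cells with a metallothionein UMI in all 3 libraries.

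**Figure D3:**
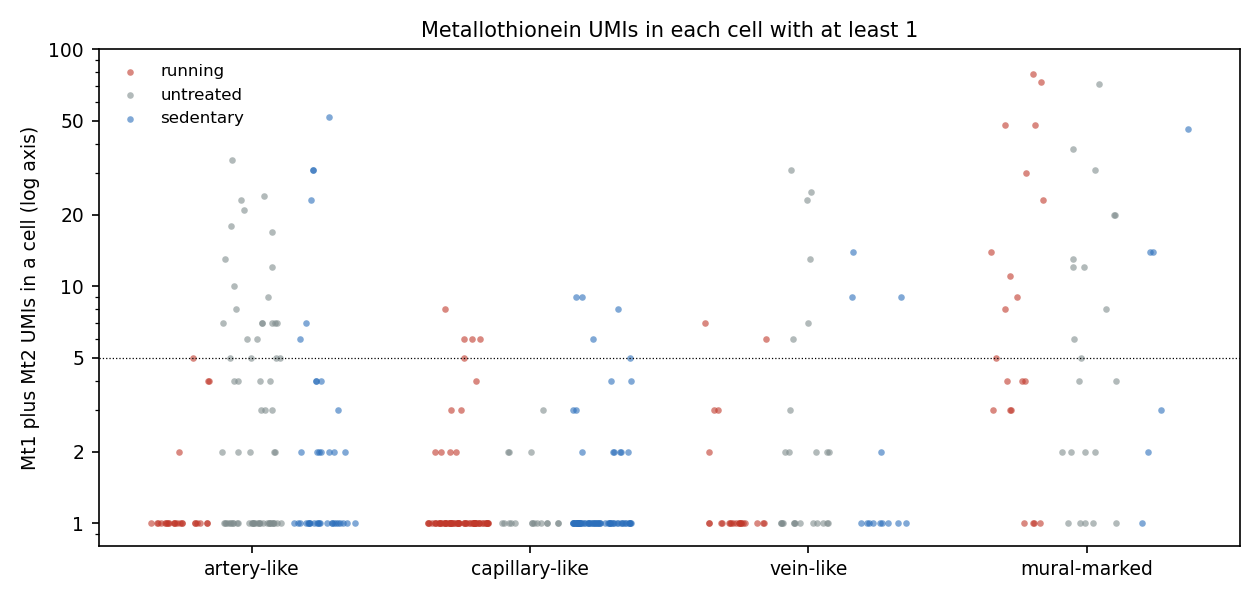
Mt1 plus Mt2 UMIs (log axis) of each cell that had at least 1, by class and library; points are spread sideways, and the dotted line marks 5 UMIs. Artery-like cells at or above the line numbered 1 in the running, 23 in the untreated and 6 in the sedentary library, and the highest held 5, 34 and 52 UMIs.

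By UMIs the difference sat mainly in 1 of the artery-like clusters, which also held the sedentary cells with most metallothionein UMIs. In cluster 2, led by Col8a1, Tgfb2, Hey1 and Gja5, Mt1 had 25 UMIs in 158 running and 154 UMIs in 177 sedentary cells, a log2 ratio of -2.60 (-3.30 to -2.01). In cluster 6, led by Fbln5, Gja5, Gja4 and Sema3g, it had 6 UMIs in 280 running and 14 in 451 sedentary cells, a ratio of -0.84 (-2.57 to 0.56). Cluster 13, led by Cytl1, Mgp and Gkn3, was small. A metallothionein UMI was found in 2 of its 9 running, 19 of its 48 untreated and 2 of its 7 sedentary cells, and in the untreated library both genes together reached 839 CPM (669 to 1041).

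Thinned to 1000 UMIs per cell, the shares of artery-like cells with either transcript were 2.85% (1.43 to 5.04, 11 of 386 cells) in the running, 4.06% (3.00 to 5.37, 47 of 1157) in the untreated and 5.52% (3.60 to 8.04, 25 of 453) in the sedentary library. Cells under 1000 UMIs, 61, 185 and 182 of them, were left out. The means over all possible draws were 3.02%, 3.82% and 5.38%. The intervals of the running and the sedentary share overlapped. Thinned to 500 UMIs, 1 draw gave 3.13% in the running, 2.68% in the untreated and 3.03% in the sedentary library, so that the running and sedentary shares changed places, while the means over all draws were 1.70%, 2.63% and 2.78%. In capillary-like cells the shares were 2.26% (1.59 to 3.12, 36 of 1593), 0.743% (0.396 to 1.27, 13 of 1749) and 2.35% (1.64 to 3.26, 35 of 1488), with 760, 543 and 1547 cells left out and 3.23%, 0.785% and 2.44% before thinning. In vein-like cells they were 5.64% (2.85 to 9.87, 11 of 195), 2.96% (1.67 to 4.84, 15 of 506) and 4.19% (1.83 to 8.09, 8 of 191), with 11, 29 and 9 left out and 11.7%, 4.67% and 6.50% before thinning. Free RNA could not be gauged at this depth. Clusters marked by muscle fibre genes had a metallothionein UMI in 0 of 34, 0 of 16 and 0 of 57 cells at median depths of 803, 738 and 593 UMIs, which allows shares of up to 10.3%, 20.6% and 6.27%. A cluster marked by erythrocyte genes had one in 1 of 11, 0 of 2 and 0 of 10 cells.

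In capillary-like cells the untreated library had lower metallothionein levels than both others. There the log2 ratio of running to untreated was 2.20 (1.53 to 3.00) for Mt1 and 1.97 (0.30 to 4.58) for Mt2, where 20.7% of genes were called, and that of untreated to sedentary was -2.17 (-2.98 to -1.50) and -2.79 (-5.35 to -1.27), where 21.0% were called. The 2 comparisons share the untreated library. Mt2 fell short of the UMI minimum for called genes in each, so their shares of genes called do not include it. In cluster 0, the capillary-like cluster most evenly shared, Mt1 had 13 UMIs in 571 running, 5 in 725 untreated and 14 in 842 sedentary cells, and the intervals of both ratios to the untreated cells included 0. The low capillary-like level was seen in the share of cells too, since the untreated share above lay below the other 2 with no overlap of intervals.

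In artery-like cells the ratio of running to untreated was -1.40 (-1.99 to -0.88) for Mt1 and -2.93 (-4.999 to -1.69) for Mt2, where 21.0% of genes were called, and that of untreated to sedentary was -0.81 (-1.10 to -0.52) and 0.39 (-0.21 to 1.06), where 21.5% were called. With each cell counted once the Mt1 ratio of running to untreated turned to 0.13 (-0.68 to 0.85). The Mt1 ratio of untreated to sedentary turned to 0.053 with each library clustered alone and to 0.21 with the early-response genes left out of the clustering. In vein-like cells the ratio of running to untreated was -0.75 (-1.49 to -0.10) for Mt1 and -0.44 (-1.39 to 0.38) for Mt2, where 23.3% were called. That of untreated to sedentary was 0.55 (-0.13 to 1.34) and -0.40 (-1.14 to 0.42), where 26.7% were called. The Mt1 signs in vein-like cells did not hold. With each library clustered alone, the ratio of running to untreated turned to 0.71 and that of untreated to sedentary to -1.70. Without the highest 5% of doublet scores they turned to 0.59 and -0.89, and with each cell counted once to 0.97 and -0.71.

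Artery-like cells exceeded capillary-like cells beyond counting error in the untreated and sedentary libraries but not in the running one. The log2 ratio of artery-like to capillary-like for Mt1 was 0.40 (-0.23 to 0.97) in the running library, where 21.4% of genes were called, 3.997 (3.37 to 4.77) in the untreated, where 17.6% were called, and 2.63 (2.27 to 3.01) in the sedentary, where 19.9% were called. For Mt2 it was 0.28 (-1.90 to 1.83), 5.19 (3.81 to 7.71) and 2.01 (1.19 to 2.85). With the highest 5% of doublet scores left out and the cells clustered anew, the Mt1 ratio of the running library came to 1.47 (0.84 to 2.04). The ratio of vein-like to capillary-like for Mt1 was 0.37 (-0.36 to 1.00) in the running, 3.32 (2.63 to 4.13) in the untreated and 0.60 (-0.18 to 1.27) in the sedentary library. For Mt2 it was 2.58 (1.46 to 3.73), 4.99 (3.56 to 7.53) and 2.60 (1.70 to 3.48). In these vein-like comparisons 29.9%, 27.1% and 31.8% of genes were called. Thus the Mt2 ratio was above 1.5-fold in vein-like cells in 3 of 3 libraries, on the few cells described above. It rested on 16 vein-like and 14 capillary-like UMIs in the running, 46 and 3 in the untreated, and 22 and 25 in the sedentary library. Each of these pairs fell short of the UMI minimum given above for called genes, so Mt2 is not among the genes called there. The running Mt2 ratio of artery-like to capillary-like cells, on 4 and 14 UMIs, fell short of it too.

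Both transcripts were found together in some thinned artery-like cells of the untreated and sedentary libraries, and in the running library 0 thinned vessel cells held both. Few thinned running cells held either transcript, so little overlap could be seen there. Before thinning, 1 running vein-like cell with at least 5 metallothionein UMIs held both. Of thinned artery-like cells with Mt1, 0 of 10 running, 8 of 39 untreated and 4 of 24 sedentary cells also had Mt2, against 1 of 376, 8 of 1118 and 1 of 429 of the cells without Mt1. In vein-like cells the counts were 0 of 6, 4 of 12 and 1 of 5 with Mt1, against 5 of 189, 3 of 494 and 3 of 186 without. In capillary-like cells they were 0 of 31, 0 of 11 and 1 of 31 with Mt1, against 5 of 1562, 2 of 1738 and 4 of 1457 without.

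Artery-like cells with a metallothionein UMI had higher levels of several artery markers and lower levels of several capillary markers. At equal depth, 145 of 1290 genes (11.2%) had a log2 ratio past 0.32 in size, with 1 sign in all 3 libraries, between the 11 running, 47 untreated and 25 sedentary cells with a UMI and the 375, 1110 and 428 without. Mgp, a matrix protein that inhibits calcification, led with log2 ratios of 4.06, 3.58 and 3.34, on 37, 169 and 28 UMIs where 3.22, 20.4 and 4.18 were awaited. Eln, the elastin of the arterial wall, had ratios of 2.06, 2.18 and 0.99. The Notch ligand Jag1 had 1.72, 1.23 and 1.64, and Gja4, an arterial gap junction protein, had 1.24, 1.18 and 1.19. Clu, a secreted chaperone, had 0.99, 1.24 and 1.94, and Slc6a6, the taurine transporter, 1.46, 1.02 and 1.14. Fxyd5, Tppp3 and Lmna were also higher, with ratios from 0.93 to 1.57. Lower were Gpihbp1, which anchors lipoprotein lipase on capillaries, with -1.41, -1.27 and -1.42, the capillary marker Cd300lg with -1.25, -1.03 and -2.36, and Marc2, Efna1 and Chek2.

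Of the artery markers 7 of 16 measured were higher and 0 lower (Dll4, Jag1, Gja4, Alpl, Eln, Mgp and Sema3g), and of the capillary markers 7 of 12 were lower and 0 higher (Fabp4, Aqp1, Timp4, Lpl, Rgcc, Cd300lg and Gpihbp1). These markers also helped to form the clusters, though not the split by metallothionein. Of the early-response genes, which are induced by stress and by tissue digestion, 8 of 20 were higher and 0 lower, of the glucocorticoid genes 1 of 8 were higher and 1 lower, and of the zinc and copper genes 1 of 3 were higher. A second random draw to 1000 UMIs, made after the values were seen, called 139 genes, of which 56 had been called the same way in the first. That is 38.6% of the first and 40.3% of the second list. It again called 10 of the 14 genes shown, among them Mgp, Eln, Gja4, Clu, Slc6a6, Gpihbp1 and Cd300lg, but not Jag1, Fxyd5, Efna1 or Chek2.

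**Figure D4:**
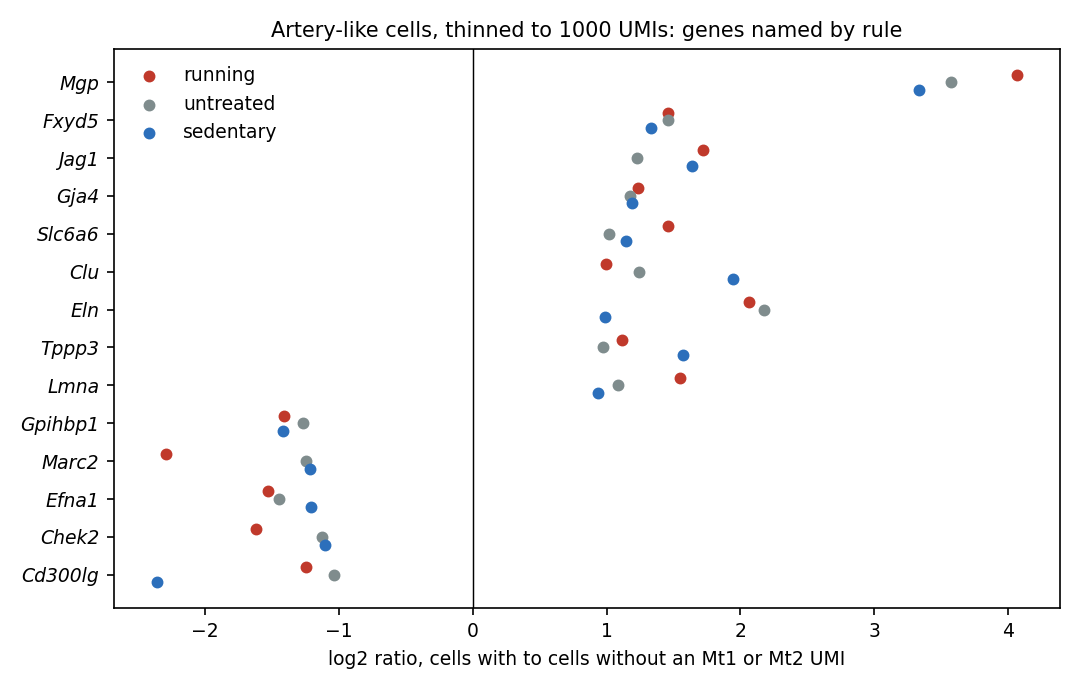
Log2 ratio (x axis) of 14 genes named by rule between artery-like cells with and without an Mt1 or Mt2 UMI, all thinned to 1000 UMIs, with 1 point per library. Mgp stands highest in all 3 libraries, with ratios of 4.06 in the running, 3.58 in the untreated and 3.34 in the sedentary one.

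Split the other way, by Mgp, a choice made after its ratio was seen, thinned artery-like cells with an Mgp UMI held a metallothionein UMI in 3 of 22 running (13.6%, 2.91 to 34.9), 18 of 75 untreated (24.0%, 14.9 to 35.3) and 5 of 17 sedentary cells (29.4%, 10.3 to 56.0). Those without Mgp held one in 8 of 364 (2.20%), 29 of 1082 (2.68%) and 20 of 436 (4.59%). Mgp-positive cells made up 5.70%, 6.48% and 3.75% of artery-like cells. The cells and the random draw are those of the contrast above, so this split restates the Mgp ratio and adds no support.

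In capillary-like cells the same contrast called 390 of 4221 genes (9.24%). Of the early-response genes 4 of 23 were higher (Zfp36, Dnajb1, Fos and Ier3) and 0 lower, and of 9 artery and 13 capillary markers measured 0 were called. The genes named first, such as St6galnac6, Ddx52 and Pola2, rested on 1 to 5 UMIs per library in the cells with a metallothionein UMI. The second draw called 0 of the 15 named genes again, and 93 of the 390 genes the same way. The early-response calls are limited in the same way. Among genes with at least 5 awaited UMIs, 2 of 379 were called higher and 3 lower, so not all 4 reached that limit. With the prior count split by the totals of both sets of cells, 127 genes were higher and 371 lower, against 287 and 103 here.

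The counts of zinc and copper genes called between the running and sedentary libraries were too small to set apart from the share over all genes. Over all genes the share called, in either direction, was 6.31% in capillary-like and 7.93% in artery-like cells. Of the 24 zinc and copper genes measured in capillary-like cells 0 were called in either direction, with a median log2 ratio of -0.06 against -0.01 over all genes. Slc30a1, the zinc exporter and a target of Mtf1, stood at -0.48 (-0.81 to -0.17) and Mtf1 itself at 0.03 (-0.38 to 0.43). In artery-like cells 0 of 15 were called higher and 1 lower, Slc31a2, with -0.59 (-1.17 to -0.03), while Slc30a1 stood at -0.01 (-0.62 to 0.60). Of the glucocorticoid response genes 1 of 14 was called higher (Errfi1, 0.59) and 1 lower (Sult1a1, -0.60) in capillary-like cells, and 1 of 12 higher (Per1, 0.63) and 0 lower in artery-like cells. Of the oxidative stress genes 1 of 16 was called higher (Srxn1, 0.73) in capillary-like and 1 of 13 (Cat, 0.61) in artery-like cells, and 0 lower in both. Of the IL-6 and STAT3 genes 3 of 13 and 0 of 11 were called higher, and of the hypoxia genes 0 of 12 and 1 of 10, with 0 lower in each. Early-response genes were called higher in 10 of 24 cases and lower in 0 in capillary-like cells, led by Hspa1a (0.91), Atf3 (0.82) and Fosb (0.73), and in artery-like cells 1 was higher (Cxcl1, 0.87) and 1 lower (Hspb1, -0.80) of 24. Of the genes beside the metallothionein cluster, Nup93 was called lower (-0.72) among 5 measured in capillary-like cells, and 0 of 3 were called in artery-like cells.

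Between the untreated and sedentary libraries, where 21.5% of all genes were called in artery-like and 21.0% in capillary-like cells in either direction, 7 of 13 glucocorticoid genes were called higher and 1 lower in artery-like cells, and 5 of 14 higher and 1 lower in capillary-like cells. Of the early-response genes 13 of 24 were called higher and 1 lower in artery-like cells, and 10 of 25 higher and 1 lower in capillary-like cells. Over the same classes Mt1 was lower in the untreated library, in artery-like cells with the turns of sign given above. The part of tissue handling in these levels was not tested.

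Across the 9 sums of class and library, which share libraries and classes, the genes most like Mt1 were Ift172, Lrrc32, Stc1, Clu, Shtn1, Syt15, Ankrd33b and Enpp3, with Pearson r of log2 CPM from 0.85 down to 0.81 among 1370 genes. Those most like Mt2 were Nr4a1 (0.91), Lrrc32, Synpo, Msrb3, Acer2, Arhgdib, Marveld1 and Mt1, and the members correlated with each other at 0.83. These are descriptions over 9 points that are not independent.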

How the data were processed

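Each of the 3 deposited matrices held whole-number UMI counts by gene and barcode. The kit was version 2 of the 10x Chromium 3' kit, per the labels' protocols. The authors used Cell Ranger 2.0.2 and the build GRCm38.p5, per the submitters' processing notes. Not given in the sources used here were the annotation release behind the counts, the read length and the calling of cells.

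Barcodes with at least 300 genes and at most 10% mitochondrial UMIs were kept. Scrublet marked 0 of 11554 and so failed as a doublet filter. Clustering in scanpy 1.11.5 left out Mt1, Mt2, Mt3 and Mt4 and used 2000 variable genes, 30 components, 15 neighbours and the Leiden method at resolution 1.0. Marker lists gave the names. The score limits (0.3 for a vessel class, -0.5 for endothelial genes and 1.0 for another type), and the rule that another type's higher score takes precedence, were set after the data were seen. A class is a rebuilt name, and the authors' own may differ.

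Counts were summed per class and library and scaled to CPM, with exact Poisson 95% intervals. A prior count of 0.5 entered the log2 ratios, whose intervals are exact for 2 Poisson counts, and shares have Clopper-Pearson intervals. Total UMIs per class and library set the precision, and were lowest in the vein-like cells. Cells are not replicates and each group had 1 library, so no test was made. Genes needed at least 50 UMIs over the sums compared (in each library for cells with and without a metallothionein UMI) and were called at 1.5-fold between libraries or classes. For cells with and without, each cell was thinned to 1000 UMIs by 1 random draw, and genes were called at 1.25-fold the same way in all 3 libraries. UMIs awaited are those that equal levels in both sets of cells would give. The prior count lifts low genes in the smaller set.

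The rule for named genes took both members, the 3 largest ratios of each list, the 8 genes with the highest correlation among those with at least 300 UMIs and an SD of at least 0.5, and the 10 highest and 5 lowest in cells with and without, of which 1 is not reported here. Mitochondrial, ribosomal protein and number-only genes were left out. Members, lists and rules were chosen with earlier results of these data known. Alternatives covered depth, clustering, scaling (TMM in edgeR 4.0.16 under R 4.3.3), doublet scores and, chosen after seeing the data, cells with many metallothionein UMIs and further random draws. Ratios and thinning were tested on simulated data. The simulated ratios came from Poisson counts of well-counted genes, so they do not cover genes whose UMIs sit in few cells, as here.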

Additional observations from a re-analysis of the deposited data

Results flagged for a closer look

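Several ratios between libraries had opposite signs in different vessel classes, and these differences were not tested, since each group had 1 library. For running to sedentary, the Mt1 log2 ratio of artery-like cells minus that of capillary-like cells was -2.23, and that of capillary-like minus vein-like cells was 0.23, within counting error. For running to untreated, artery-like minus capillary-like came to -3.60 for Mt1 and -4.90 for Mt2, and capillary-like minus vein-like to 2.95 for Mt1 and 2.41 for Mt2. For untreated to sedentary, artery-like minus vein-like came to -1.35 for Mt1 and 0.79 for Mt2, capillary-like minus vein-like to -2.72 for Mt1, and artery-like minus capillary-like to 3.18 for Mt2. Many of these signs did not hold. In vein-like cells the Mt1 ratio of untreated to sedentary turned to -1.70 with each library clustered alone and to -0.89 without the highest 5% of doublet scores, and that of running to untreated to 0.71 and 0.59. In artery-like cells the Mt1 ratio of untreated to sedentary turned to 0.053 with each library clustered alone and to 0.21 clustered without early-response genes. Except for Mt2 in artery-like minus capillary-like cells for running to untreated, each of these differences rests on at least 1 ratio that turned sign under an alternative. All but those of running to sedentary use the untreated library, for which batch and group cannot be told apart.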

How the results depend on the processing

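The 30 log2 ratios of Mt1 and Mt2 were recomputed under 12 alternatives. Of 270 values under the 9 alternatives chosen at the outset, 251 stayed inside the interval of the reported ratio. Those under at least 500 genes, Leiden resolution 0.5, clustering with the metallothionein genes, TMM and scaling without mitochondrial, ribosomal and haemoglobin UMIs all did. The causes of the changes below were not tested, beyond what each alternative leaves out. Clustered without early-response genes, Mt1 in artery-like cells was -2.27 for running to untreated and turned sign to 0.21 for untreated to sedentary, where Mt2 came to 1.39, and untreated Mt1 artery-like to capillary-like was 4.79. With each library clustered alone, Mt1 turned sign to 0.053 for untreated to sedentary in artery-like cells, to 0.71 for running to untreated in vein-like cells and to -1.70 for untreated to sedentary in vein-like cells, and Mt1 vein-like to capillary-like was 1.76 in the untreated and 1.83 in the sedentary library. Without the highest 5% of doublet scores, Mt1 in vein-like cells turned sign to 0.59 for running to untreated and to -0.89 for untreated to sedentary. Mt1 artery-like to capillary-like was then 1.47 in the running and 3.33 in the sedentary library (Mt2 2.98), and Mt1 vein-like to capillary-like was 1.38, 2.58 and 1.30 in the running, untreated and sedentary libraries. With cells thinned to 1000 UMIs, untreated Mt1 vein-like to capillary-like was 2.57 and sedentary Mt2 artery-like to capillary-like 1.16.

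The remaining alternatives for ratios were chosen after seeing the data. Leaving out cells of 5 or more metallothionein UMIs lowers most the libraries with most such cells, so its changes follow in part from its construction. Under it, running to sedentary in artery-like cells was -0.55 for Mt1 and -0.38 for Mt2, running to untreated turned sign to 0.58 for Mt1 and was -0.47 for Mt2, and untreated to sedentary was -1.13 for Mt1. In vein-like cells all 6 ratios turned sign, to 0.80 for Mt1 and 0.88 for Mt2 for running to sedentary, 1.58 and 0.38 for running to untreated, and -0.78 and 0.50 for untreated to sedentary. Artery-like to capillary-like was 1.79 for Mt1 and 2.73 for Mt2 in the untreated and 1.20 and 0.66 in the sedentary library. Vein-like to capillary-like was 0.68 and 3.23 in the untreated, and turned sign to -0.27 for Mt1 and was 0.76 for Mt2 in the sedentary library. With each cell counted once, artery-like cells gave -0.53 for Mt1 running to sedentary, 0.13 (a turn of sign) for Mt1 and -1.07 for Mt2 running to untreated. Vein-like cells turned sign to 0.69 for Mt2 running to sedentary, 0.97 for Mt1 and 0.44 for Mt2 running to untreated, and -0.71 for Mt1 untreated to sedentary. Mt1 artery-like to capillary-like was 2.21 in the untreated and 1.02 in the sedentary library, and vein-like to capillary-like 1.35 for untreated Mt1 and 0.997 for sedentary Mt2. Without the cell highest in metallothionein, sedentary Mt1 artery-like to capillary-like was 2.25. Over all 12 alternatives 34 of 360 values turned sign, 15 of them inside the interval of the reported ratio. Apart from the vein-like Mt1 ratio of running to sedentary, which turned positive with each cell counted once, those inside the interval are not printed above.

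Unthinned, the running shares of cells with either gene were 5.82% in artery-like, 3.23% in capillary-like and 11.7% in vein-like cells. Thinned to 500 UMIs, shares were 3.13% in running, 2.68% in untreated and 3.03% in sedentary artery-like cells, 1.10%, 0.262% and 1.18% in running, untreated and sedentary capillary-like cells, and 1.94% in running vein-like cells. With genes of at least 20 UMIs, called genes came to 1275, 2509 and 2530 in artery-like cells for running to sedentary, running to untreated and untreated to sedentary, to 1252, 2461 and 2587 in vein-like cells, and to 1210 in capillary-like cells for running to sedentary. Between cells with and without a metallothionein UMI, thinning to 500 UMIs called 642 of 3459 genes (18.6%) in capillary-like cells, and a limit of at least 5 awaited UMIs, also chosen after seeing the data, called 5 of 379 (1.32%) in capillary-like and 37 of 328 (11.3%) in artery-like cells. With the prior count split by the totals of both sets of cells, 42 genes were higher and 124 lower in artery-like cells, against 68 and 77 as reported. No paired analysis was possible because each group had 1 library and no test was made, and for the same reason no library could be left out of a group. Depth limits Mt2 most, with 3 to 25 UMIs in capillary-like cells and 4 in running artery-like cells.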

Other observations

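The Mt1 level of lymphatic-like cells, led by Ccl21a, Lyve1 and Mmrn1, rested on 12 UMIs in 43 running, 6 in 27 untreated and 2 in 10 sedentary cells. Mt2 had 6 UMIs in the running cells and 0 in the untreated and sedentary ones, with exact 95% upper limits of 46.4 and 178 CPM.

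The unnamed cluster led by Penk, Itm2a, Esm1 and Col13a1 held Mt1 and Mt2 together at 172 CPM (104 to 269) in 32 running, 177 CPM (115 to 259) in 59 untreated and 228 CPM (143 to 345) in 42 sedentary cells, with a UMI in 9, 8 and 7 of them.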
